A study of Arabidopsis thaliana with 6 samples.

Results

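Rhodanese-domain genes of Arabidopsis thaliana were compared between 35S:PCO1 plants and wild-type plants, both under hypoxia. The set holds 9 loci, which were chosen by family membership around AT2G17850, a gene already known to be lower in 35S:PCO1 in these data. A locus was measured where the platform annotation pairs a probe set with that gene alone, which was so for 7 of the 9 loci among 22746 tested probe sets. The measured members were AT2G17850, AT2G21045, AT5G66170 (STR18), AT2G42220, AT3G08920, AT4G24750 and AT4G27700, each with 1 probe set. AT4G35770 (SEN1) and AT5G66040 (STR16) have no such probe set in the annotation used and were not analysed here.

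The study has 6 arrays, 3 of wild type and 3 of 35S:PCO1, plants in which the constitutive 35S promoter of cauliflower mosaic virus drives plant cysteine oxidase PCO1. All plants of both genotypes stood in the dark at 5% oxygen for 4 h, starting 2 h into the day of a photoperiod with 8 h of light. The labels disagree on age (4 or 5 weeks) and on tissue (the rosette or the whole plant). The labels name neither the number of transgenic lines nor the number of plants pooled per sample, nor do they say whether both genotypes were treated in one run, so run and genotype cannot be told apart. No plants in normal air enter the comparison, so no value here measures induction by hypoxia, and the transgene itself was not measured here.

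The rhodanese domain is a small fold named after an enzyme that moves a sulfur atom from thiosulfate to cyanide. In an active domain a cysteine carries the sulfur as a persulfide and passes it to an acceptor, so these proteins are classed as sulfurtransferases; other members of the superfamily have taken on different tasks, such as arsenate reduction, or have lost the catalytic cysteine. Plant cysteine oxidases consume oxygen to oxidise a cysteine at the N-terminus of the ERF-VII transcription factors, the activators of hypoxia genes, and the oxidised factors are degraded. AT2G17850 is usually listed with the core genes that plants induce when oxygen is short. The comparison therefore addresses whether the lower level of AT2G17850 in 35S:PCO1 extends to its relatives.

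Values are log2 expression from robust multi-array average (RMA), with array medians from 5.86 to 5.91 and array minima from 2.73 to 2.81. Scores on the first principal component were -6.13, -18.8 and -0.956 in wild type and 8.54, 11.6 and 5.80 in 35S:PCO1. This component thus separated the genotypes, and wild type replicate 2 was its most extreme array. The log2 difference of 3 prime over 5 prime GAPDH signal was 0.813 on wild type replicate 2, against 0.271 to 0.435 elsewhere. For actin it was 1.78 against 1.37 to 1.52. For ubiquitin it was 0.980, inside the range of the other arrays, 0.941 to 1.10. On the second component it was wild type replicate 3 that lay apart, at 17.4 against 4.56 for the next array. Of 6 leaf markers 2 were measured, PSAN and LHCB4.1, which encode photosystem proteins. Both were bright in every array, from 12.3 to 13.3. Their array mean ranged from 12.84 to 12.90 in wild type and from 12.72 to 12.83 in 35S:PCO1, and neither was called. PYK10, a root-rich beta-glucosidase, lay between 6.86 and 7.30. Over the 4 measured of 6 root markers the array mean ranged from 6.29 to 6.43 in wild type and from 6.25 to 6.30 in 35S:PCO1. None of these root markers was called, where 0.264% of all probe sets were. The part of root or leaf tissue in the differences between genotypes was not tested.

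AT2G17850 fell in 35S:PCO1. For replicates 1, 2 and 3 its log2 values were 7.47, 7.76 and 6.74 in wild type, and 5.62, 5.45 and 5.45 in 35S:PCO1. All 35S:PCO1 arrays lay below all wild-type arrays, an order that held for 10.5% of all tested probe sets. The wild-type arrays were spread far more widely, over 1.01 against 0.17 log2 units. The means were 7.32 ± 0.52 (SD, n = 3) and 5.51 ± 0.099 (SD, n = 3). The log2 change, 35S:PCO1 minus wild type, was -1.81 (SE 0.21, 95% interval from -2.30 to -1.33), or 3.52-fold lower, with an adjusted p of 0.012 by limma with Benjamini-Hochberg adjustment over all probe sets. In these bulk samples, fewer cells that express a gene and less RNA per cell cannot be told apart.

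This change was the 8th lowest among the 22746 tested probe sets, of which 60, or 0.264%, were called: 44, or 0.193%, lower and 16, or 0.0703%, higher. The residual spread of AT2G17850 was also large: its residual SD of 0.38 exceeded that of 99.5% of probe sets. The limma fit draws each spread towards that of all probe sets. The SE and interval of AT2G17850 are thus narrower than its own arrays alone would give. Without wild type replicate 3, the lowest wild-type array, the log2 change was -2.10 (SE 0.10, adjusted p = 0.00014 by limma). Without wild type replicate 2, the most extreme array on the first component and the highest for this gene, it was -1.60 (SE 0.18, adjusted p = 0.013 by limma). The call was lost without wild type replicate 1 (adjusted p = 0.12), 35S:PCO1 replicate 1 (0.076), replicate 2 (0.067) or replicate 3 (0.062), while the log2 change stayed between -1.87 and -1.74 in these 4 fits.

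**Figure D1:**
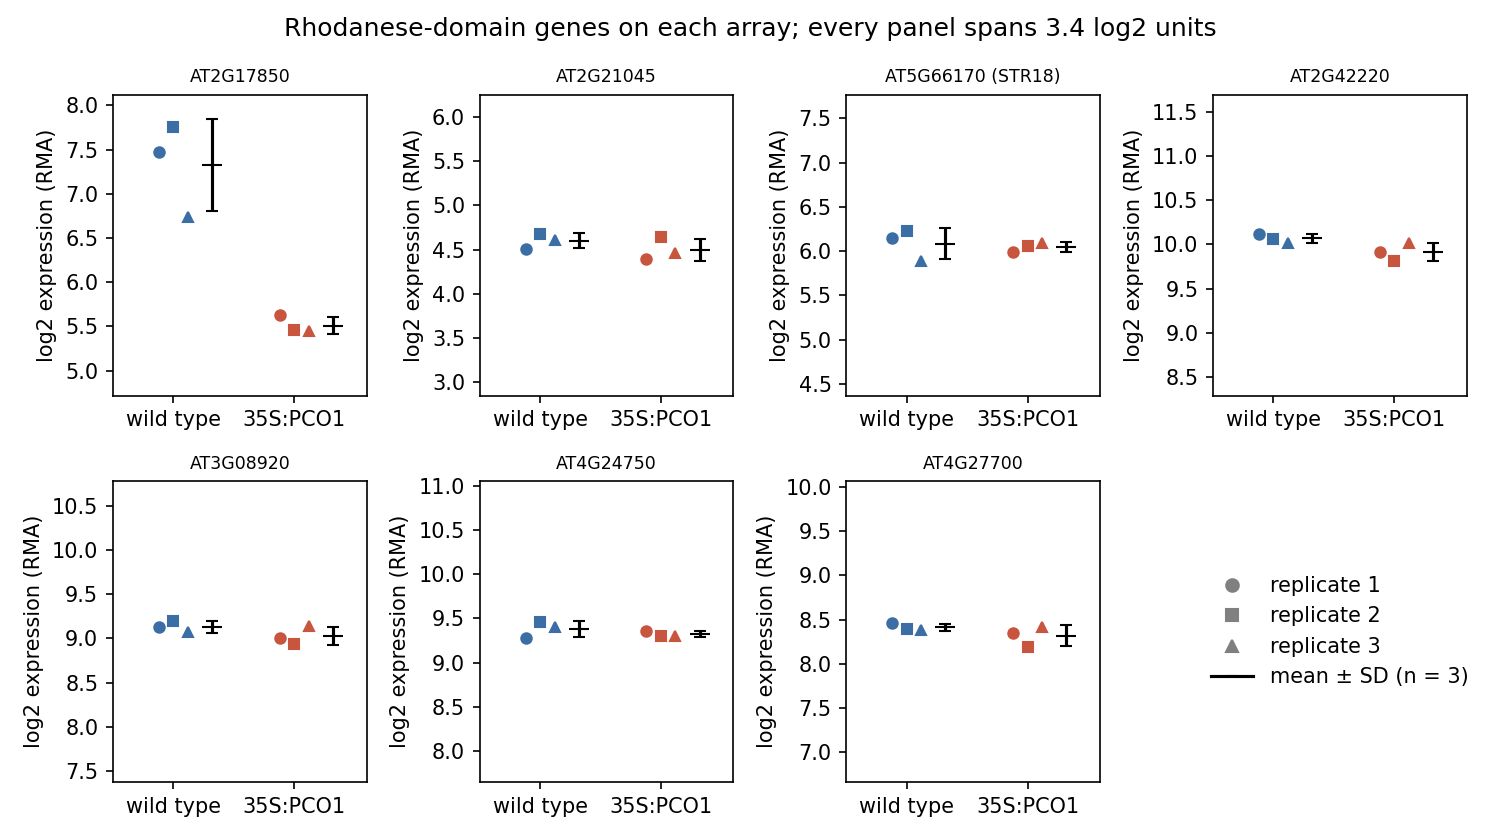
Log2 expression of the 7 measured rhodanese-domain genes on each of the 6 arrays, with wild type in blue, 35S:PCO1 in red, replicates by symbol and the mean ± SD (n = 3) beside each group. All panels span the same number of log2 units; the groups are widely separated for AT2G17850, where the 35S:PCO1 arrays lie between 5.45 and 5.62, and lie close together for the other genes.

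Of the other members, AT2G21045 and STR18 are, like AT2G17850, small proteins built from 1 rhodanese domain. AT2G21045 encodes the arsenate reductase that limits arsenic accumulation in Arabidopsis. It was dim, with log2 values of 4.51, 4.68 and 4.61 in wild type and 4.39, 4.64 and 4.46 in 35S:PCO1, and its groups overlapped. The log2 change was -0.10 (SE 0.080, 95% interval from -0.29 to 0.078), with an adjusted p of 0.71 by limma. RMA compresses changes near the lower end of the scale.

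STR18, a sulfurtransferase, had log2 values of 6.14, 6.22 and 5.89 in wild type and 5.99, 6.06 and 6.09 in 35S:PCO1. The 35S:PCO1 arrays lay inside the range of the wild-type arrays. Its log2 change was -0.038 (SE 0.090, 95% interval from -0.24 to 0.17, adjusted p = 0.93 by limma), and it was 0.032 without wild type replicate 2, so no direction can be given. STR18 and AT3G08920 had the same order of wild-type arrays as AT2G17850, with replicate 2 highest and replicate 3 lowest, but over a range of only 0.34 and 0.13 log2 units.

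The other 4 measured members, AT2G42220, AT3G08920, AT4G24750 and AT4G27700, encode rhodanese-like proteins that have been found in chloroplasts. AT2G42220 had log2 values of 10.12, 10.06 and 10.02 in wild type and 9.91, 9.81 and 10.01 in 35S:PCO1. No 35S:PCO1 array reached the wild-type range, with a gap of 0.0068 log2 units between the closest arrays. The same order held for 10.5% of all tested probe sets. The log2 change was -0.16 (SE 0.069, 95% interval from -0.31 to 0.0019), with an unadjusted p of 0.052 and an adjusted p of 0.49 by limma, so AT2G42220 was not called.

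AT3G08920 had log2 values of 9.13, 9.20 and 9.07 in wild type and 9.005, 8.94 and 9.14 in 35S:PCO1, with overlapping groups and a log2 change of -0.10 (SE 0.071). AT4G27700 had 8.46, 8.40 and 8.38 in wild type and 8.35, 8.19 and 8.42 in 35S:PCO1, again overlapping, with a log2 change of -0.094 (SE 0.073). In AT2G42220, AT3G08920 and AT4G27700 alike, 35S:PCO1 replicate 2 was the lowest and replicate 3 the highest of the 35S:PCO1 arrays. AT4G24750 differed in that replicate 1 was the highest, while replicate 2 was again the lowest, just below replicate 3. It had 9.36, 9.30 and 9.30 in 35S:PCO1 against 9.28, 9.46 and 9.40 in wild type, and its log2 change was -0.060 (SE 0.066). That value was 0.00018 when arrays were weighted by their quality, so its sign is not settled either. The adjusted p of these 3 genes lay between 0.67 and 0.81 by limma.

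The small changes of the relatives depended on single arrays. Without 35S:PCO1 replicate 2 the log2 change of AT4G27700 was -0.028 and that of AT3G08920 -0.060, and without replicate 3 they were -0.15 and -0.16. AT4G24750 was at -0.019 without wild type replicate 2 and at -0.11 without wild type replicate 1. AT2G21045 was at -0.053 without 35S:PCO1 replicate 1, -0.065 without wild type replicate 2 and -0.17 without 35S:PCO1 replicate 2. AT2G42220 stayed between -0.21 and -0.11, and none of the relatives was called in any of these fits. With 1 array left out, only 23 to 60 of the 22746 tested probe sets were called, so this absence of calls says little.

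Of the 7 measured members, AT2G17850 alone was called by limma, as lower, and the set was chosen around it with that known. None of the other 6 was called, where 0.264% of all probe sets were, so their count says little. None of these 6 had an unadjusted p under 0.05 by limma, a level that 10.4% of all probe sets reached in either direction. With all arrays their log2 changes were all negative, as were 55.2% over all probe sets. However, STR18 was at 0.032 without wild type replicate 2 and AT4G24750 at 0.00018 with array weights. The 6 had a median log2 change of -0.099, against -0.012 over all probe sets, and ranged from -0.16 to -0.038. The lowest bound of their 95% intervals was -0.31, or 1.24-fold lower, which does not reach -1.33, the upper bound of the interval of AT2G17850. That interval of AT2G17850 is the one narrowed by the limma fit. A missed threshold does not show that these 6 genes were equal between genotypes; decreases up to the size of these bounds are within their intervals.

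Whether the decrease of AT2G17850 differed from that of its relatives was tested on the difference itself, AT2G17850 minus each other gene on every array. Against STR18 this log2 difference was 1.33, 1.53 and 0.86 on the wild-type arrays and -0.37, -0.61 and -0.64 on the 35S:PCO1 arrays, so the groups did not overlap. AT2G17850 fell by 1.78 more than STR18 on the log2 scale (difference of changes -1.78, SE 0.22, 95% interval from -2.38 to -1.17). Against AT2G42220, the relative with the most negative change, the difference of changes was -1.66 (SE 0.30, 95% interval from -2.48 to -0.84). Against AT2G21045 it was -1.71 (SE 0.32), against AT3G08920 -1.71 (SE 0.28), against AT4G24750 -1.75 (SE 0.31) and against AT4G27700 -1.72 (SE 0.30).

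In all 6 pairs the groups did not overlap, and each pair gave an exact permutation p of 0.1, the smallest that 3 against 3 arrays can give. The groups of AT2G17850 alone lay 1.12 log2 units apart and the relatives varied little. This outcome therefore follows from AT2G17850, which was known to be lower, and tells nothing about the relatives. With the spread of each difference estimated from its own arrays, limma's linear model gave adjusted p from 0.0081 to 0.0083 over 22745 differences. By the same test AT2G17850 differed from 99.8% of all probe sets, so the 6 results describe the decrease of AT2G17850 and show nothing that sets the rhodanese genes apart from other genes. When 1 array was left out, the 6 differences of changes ranged from -2.06 to -1.44, with adjusted p up to 0.037.

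**Figure D2:**
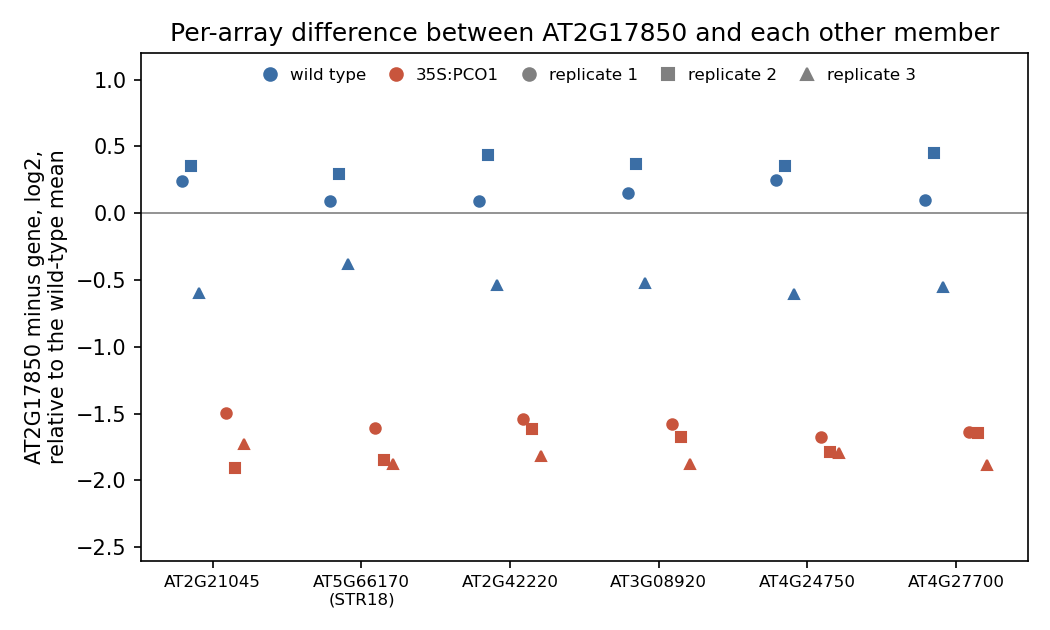
Log2 expression of AT2G17850 minus that of each of the other 6 measured members, on each array and relative to the mean of the wild-type arrays, which is the line at 0. For every gene the 35S:PCO1 arrays (red) lie below the wild-type arrays (blue), and wild type replicate 3 is the lowest wild-type array; all columns share the values of AT2G17850.

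Further rhodanese-like genes were listed by locus, 11 in number, of which 7 were measured. None was called in either direction by limma, where 0.264% of all probe sets were. By limma 2 had an unadjusted p under 0.05, a level that 10.4% of all probe sets reached. The median log2 change was -0.0019 (0.030 after repeated quantile normalization), with 4 changes negative and 3 positive. The range ran from -0.18 in AT2G40760 to 0.17 in AT3G59780. AT2G40760 had log2 values of 7.73, 7.77 and 7.78 in wild type and 7.56, 7.63 and 7.55 in 35S:PCO1, all lower than in wild type (SE 0.057, adjusted p = 0.34 by limma). AT3G59780 had 8.44, 8.32 and 8.40 in wild type and 8.60, 8.46 and 8.60 in 35S:PCO1, all higher than in wild type (SE 0.066, adjusted p = 0.43 by limma). All 35S:PCO1 arrays lay below all wild-type arrays in 10.5% of all probe sets, and above them in 5.68%.

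TROL, the thylakoid protein that anchors ferredoxin-NADP reductase, had a log2 change of 0.044 (SE 0.064), and CaS, a thylakoid calcium-sensing protein, one of 0.041 (SE 0.091). CaS was lowest on wild type replicate 2, at 8.89 against 9.01 to 9.18 on the other arrays. AT1G09280, AT1G17850 and AT5G19370, a protein with a rhodanese and a peptidyl-prolyl isomerase domain, had log2 changes from -0.064 to -0.0019. Over all 14 measured rhodanese genes, only AT2G17850, known to be lower beforehand, was called lower, and none was called higher. Over all probe sets the shares were 0.193% and 0.0703%. The 13 without AT2G17850 had 95% intervals that lay between -0.31 and 0.32.

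**Figure D3:**
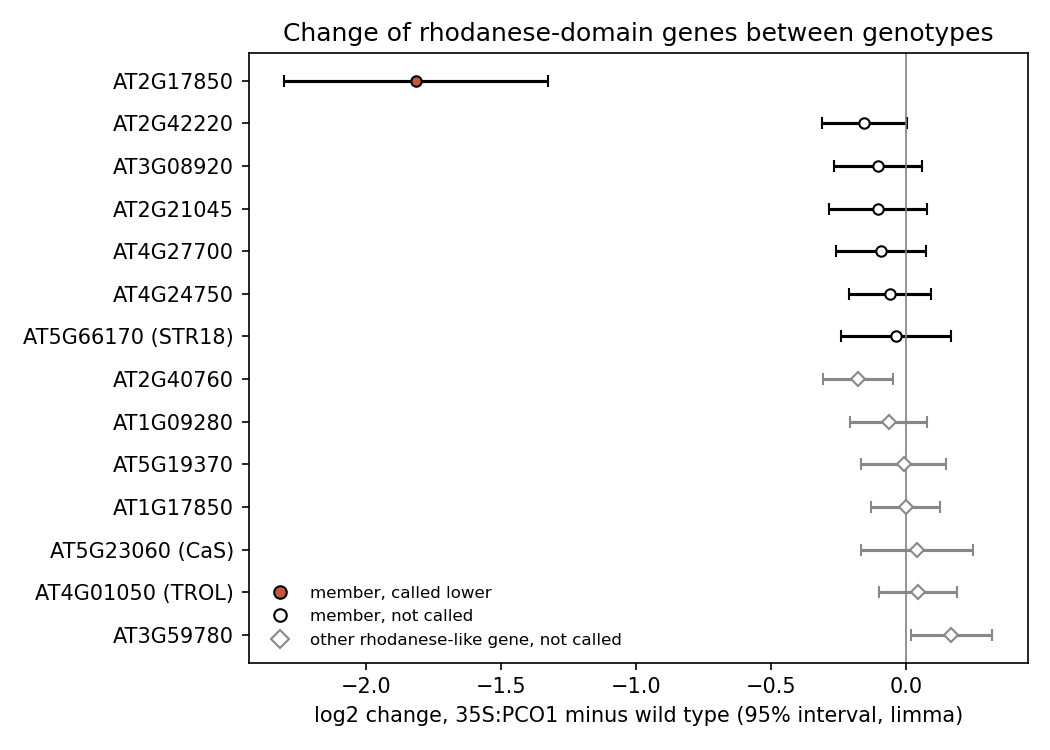
Log2 change, 35S:PCO1 minus wild type, with the 95% interval of the limma fit, for the 7 measured members (circles) and 7 other rhodanese-like genes (diamonds); filled means called at an adjusted p under 0.05. AT2G17850 stands at -1.81, and all intervals of the other 13 genes lie between -0.31 and 0.32.

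Sulfurtransferases act beside the enzymes that supply reduced sulfur, and 5 of 27 listed genes of sulfur metabolism were measured. None was called by limma, where 0.264% of all probe sets were, and their median log2 change was -0.13. That median was -0.073 and -0.070 without wild type replicates 2 and 3, -0.084 and -0.080 without 35S:PCO1 replicates 2 and 3, and -0.083 with array weights. APS3 and APS4, ATP sulfurylases of the first step of sulfate assimilation, had log2 changes of -0.14 (SE 0.075, adjusted p = 0.57) and -0.13 (SE 0.070, adjusted p = 0.57). APS3 was 7.40, 7.39 and 7.62 in wild type and 7.36, 7.34 and 7.28 in 35S:PCO1, so every 35S:PCO1 array lay lower, as in 10.5% of all probe sets, whereas the groups of APS4 overlapped. The sulfite reductase SIR had a log2 change of -0.13 (SE 0.072). CPNIFS, the plastid cysteine desulfurase that releases sulfur for iron-sulfur clusters, was at -0.0060 (SE 0.056). AT5G26600 was at 0.11 (SE 0.062).

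SEN1, a member that was not measured, is known as a gene induced by darkness, and all plants were dark during treatment. Of 17 other genes listed for darkness and sugar starvation, 5 were measured. None was called by limma, where 0.264% of all probe sets were. All 5 log2 changes were positive, with a median of 0.077, which turned to -0.052 without 35S:PCO1 replicate 2. MCCA, a subunit of methylcrotonyl-CoA carboxylase in leucine breakdown, had log2 values of 10.02, 10.14 and 10.11 in wild type and 10.10, 10.70 and 10.06 in 35S:PCO1, for a change of 0.20 (SE 0.15). MCCB, its partner subunit, was at 0.093 (SE 0.098), with 8.93 on 35S:PCO1 replicate 2 against 8.56 to 8.63 on all other arrays. These 5 genes were high on that 1 array, with a mean of 10.3 against 9.86 to 9.96 on the others, and AT2G17850 was not, at 5.45.

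Genes beside the members in the order of the TAIR10.1 gene table were also read. Of the 36 loci within 2 places of a member, 16 were measured and none was called by limma, with log2 changes from -0.21 to 0.057. As only 0.264% of all probe sets were called, the absence of calls says little about these neighbours. Directly beside AT2G17850, AT2G17845 of the NAD(P)-binding Rossmann-fold superfamily had a log2 change of 0.043 (SE 0.068) and AT2G17860 of the thaumatin family one of 0.013 (SE 0.059). Both were dim, with means from 3.39 to 4.44, and their groups overlapped.

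The genes whose pattern over the 6 arrays was most like that of AT2G17850 were found by Pearson's r among the 94 other loci whose log2 values spanned at least 1 unit. They were AT5G10040 (r = 0.986), AT5G01870 (0.984), AT4G22490 (0.982), AT4G33560 (0.981) and AT1G19530 (0.980), and 15 loci had an r over 0.9. An r over 2 groups of 3 arrays mainly reflects the difference between the groups, and these genes were picked for it, so it is given as a description. AT5G10040 was 5.86, 6.04 and 5.74 in wild type and 5.06, 4.94 and 4.92 in 35S:PCO1. AT5G01870 and AT4G22490 belong to the lipid-transfer protein superfamily, and AT4G22490 was 7.97, 8.12 and 7.35 in wild type and 6.02, 6.40 and 6.24 in 35S:PCO1.

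AT1G19530 fell most among them, from 9.004, 9.27 and 8.05 in wild type to 6.47, 6.59 and 7.02 in 35S:PCO1 (log2 change -2.08, SE 0.28, adjusted p = 0.022 by limma). AT4G33560, of the wound-responsive family, had a log2 change of -0.76 (SE 0.14) and was not called (adjusted p = 0.12 by limma). In all 5 genes, as in AT2G17850, wild type replicate 2 was the highest and wild type replicate 3 the lowest of the wild-type arrays. This shared order follows in part from the choice of the genes by r over the same arrays. For the rhodanese relatives, r with AT2G17850 ranged from 0.446 in STR18 to 0.783 in AT2G42220.

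**Figure D4:**
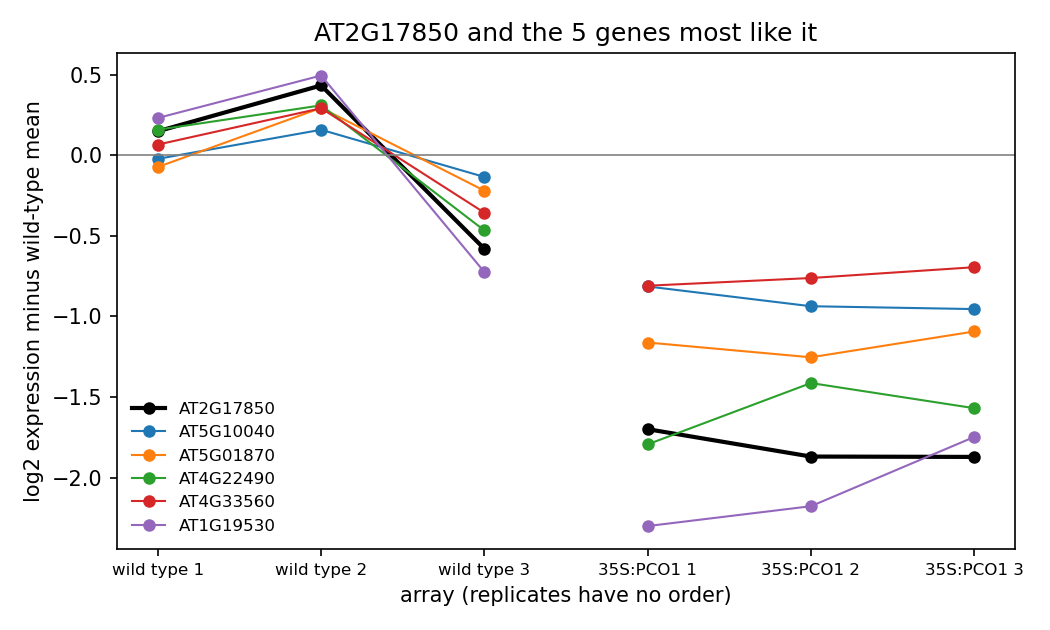
Log2 expression relative to the wild-type mean for AT2G17850 (black) and the 5 genes with the highest Pearson's r to it over the 6 arrays; lines join arrays of a group only to guide the eye. In wild type all 6 genes are highest on replicate 2 and lowest on replicate 3, and all 35S:PCO1 arrays lie below the wild-type arrays of the same gene. Both features follow in part from the choice of the genes by r.

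**Figure D5:**
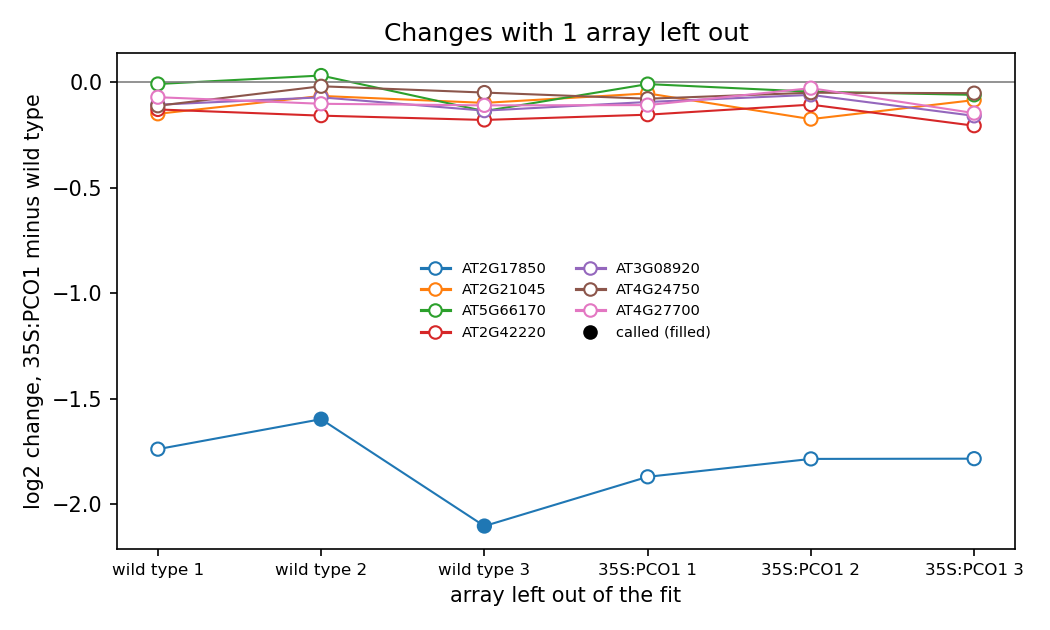
Log2 change, 35S:PCO1 minus wild type, of the 7 measured members when the array on the horizontal axis is left out of the limma fit; filled points are called at an adjusted p under 0.05. AT2G17850 stays between -2.10 and -1.60 and is called in 2 of the 6 fits, and the other 6 genes stay between -0.21 and 0.032 and are called in none. Each fit called only 23 to 60 of the 22746 tested probe sets.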

How the data were processed

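Total RNA was hybridised to Affymetrix Arabidopsis Genome GeneChip arrays, per the labels' protocols. The deposited values are log2 expression made by the authors with RMA, per the submitters' processing notes; software, version and probe definition are not given in the sources used here. The number of arrays limits the precision, and the labels do not say that replicates are separate plants, so the spread behind each p-value may be technical.

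Of 22810 probe sets, 64 controls were left out. Genes came from the platform annotation, updated through the TAIR10.1 table: 13436 probe sets gave 1 locus, 503 had several genes and 8730 were unlisted. A locus was read from its probe set with the highest mean. Groups came from the sample titles and were compared in R 4.3.3 with limma 3.58.1 (lmFit, eBayes; 2-sided), called at a Benjamini-Hochberg adjusted p under 0.05. The same model was fitted to AT2G17850 minus every other probe set. There, moderation gave 90980 degrees of freedom, because all differences share AT2G17850, so each difference's own spread (4 degrees of freedom) was used in the report, a choice made after seeing the data. The procedure was tested on simulated data.

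The members and lists were chosen with earlier results of these data known. Genes named are the members, the 2 listed genes with the largest change per list where none was called, neighbours of AT2G17850, the 5 genes most like it, and further list genes given as examples. Replicate numbers did not pair the arrays: deviations from group means of same-numbered arrays correlated at -0.059, -0.22 and -0.26. A planned list of hypoxia genes and a search of promoters for motifs were not run.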

Additional observations from a re-analysis of the deposited data

How the results depend on the processing

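The log2 change of AT2G17850 was negative under all 16 alternatives, from -2.10 to -1.60. Several of these could not alter it and are no further support for its sign. They are the block, the eBayes settings, the thresholds, the probe set filters and the mean of probe sets. Its call was lost at a threshold of 0.01 (log2 change -1.81, adjusted p = 0.012), where 0 members were called lower, and in 4 of the 6 fits with 1 array left out, in which the number of members called lower ranged from 0 to 1 and the adjusted p from 0.00014 to 0.12. These fits have fewer samples. The call held with the replicate number as a block (log2 change -1.81, adjusted p = 0.044 by limma), and the block changed no other call. Whether the replicate numbers pair the samples is not known. With the trend and robust settings of eBayes on all arrays the call also held near the threshold (adjusted p = 0.044 by limma). No member was called higher, and no gene of the other rhodanese, sulfur and darkness lists was called in either direction, under any alternative run. These absences say little, as few probe sets were called at all. The share was 0.264% with all arrays, and 23 to 60 of 22746 probe sets were called with 1 array left out. A threshold of 0.01 could not add a call. With 1 array left out, the log2 change of STR18 ranged from -0.14 to 0.032 and changed sign without wild type replicate 2; AT4G24750 changed sign with array weights (0.00018). The cause was not tested. With moderation, the adjusted p of the 6 differences of changes lay between 3.1e-08 and 1.7e-07 and is too small for the reason given under the processing. The dim filter at the 40th percentile removed AT2G21045. The hypoxia list and its alternatives were not run. With 3 arrays per group, changes of the size seen in the relatives of AT2G17850 could not be told from 0.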
